A study of Mus musculus with 4 samples.

Results

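The regions described here were the Runx3-bound regions that lay in exons away from transcription start sites (TSS) in splenic CD4+ dendritic cells (DC). A Runx3 peak was counted as a member when its centre lay more than 1 kb from the TSS of every annotated transcript and inside an exon of at least 1 transcript, on mm9 with the GENCODE M1 annotation. Of 15121 peaks in the deposited list, 331 met the rule, or 2.19%. Beside them stood 4632 intronic and 4413 intergenic peaks more than 1 kb from a TSS, and 5745 peaks within 1 kb of a TSS.

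Runx3 binding was measured by ChIP-seq in wild-type CD11chiMHCII+CD4+ DC that were sorted from the spleens of several pooled mice, fixed and frozen. A homemade polyclonal antibody against Runx3 was used for 2 immunoprecipitates, and whole cell extract served as 2 input controls. The labels give the strain as C57BL/6, except for 1 input whose label reads C57BL/7. The authors called peaks once on all 4 samples, so each peak had a single score and no value per replicate, and no comparison between conditions could be made.

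Runx3 belongs to the RUNX family of transcription factors, whose Runt domain reads a short DNA element with the core hexamer TGTGGT. RUNX factors act together with the partner CBFβ and either activate or repress nearby genes, and Runx3 is known for roles in T cells, natural killer cells and DC. Such factors are best known at promoters and enhancers. The bases of an exon serve the transcript as codons, untranslated sequence or noncoding RNA, and they can hold binding sites as well.

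The deposited score ranks peaks within the list. It is the number that MACS2, the peak caller, wrote for each peak, in a unit that the sources used here do not state, and it ran from 1.33 to 309.3 over the whole list. Exonic peaks covered most of that range, from 1.74 to 232.83.

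The stretches below show the hexamer nearest the peak centre in 7 peaks centred on coding exons, chosen for their score or for a role in the immune system. Each is printed 5′ to 3′ on the strand that reads TGTGGT, from the NCBIM37 (mm9) assembly, and the capitals mark the hexamer. In Nfkb2 the hexamer lies outside the coding exon at the peak centre but in another annotated exon.
Ncam2 (chr16:81437915-81437994, minus strand): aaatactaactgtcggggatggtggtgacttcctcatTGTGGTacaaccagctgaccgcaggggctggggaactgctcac
Ppargc1a (chr5:51885912-51885991, plus strand): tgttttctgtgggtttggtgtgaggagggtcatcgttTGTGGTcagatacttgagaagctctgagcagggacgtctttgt
St3gal5 (chr6:72103553-72103632, minus strand): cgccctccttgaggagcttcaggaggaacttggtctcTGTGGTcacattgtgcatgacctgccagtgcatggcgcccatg
Atg9a (chr1:75184626-75184705, minus strand): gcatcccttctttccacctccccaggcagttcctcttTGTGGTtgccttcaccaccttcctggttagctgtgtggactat
Tap1 (chr17:34333564-34333643, minus strand): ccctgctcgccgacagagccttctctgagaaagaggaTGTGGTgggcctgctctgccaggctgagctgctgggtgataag
Stat6 (chr10:127092330-127092409, plus strand): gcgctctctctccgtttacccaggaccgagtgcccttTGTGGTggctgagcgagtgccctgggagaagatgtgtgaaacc
Nfkb2 (chr19:46383499-46383578, minus strand): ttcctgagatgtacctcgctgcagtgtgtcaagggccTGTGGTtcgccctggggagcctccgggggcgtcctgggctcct

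Ncam2, which encodes a neural cell adhesion molecule, held the highest score of all exonic peaks, 232.83, the 4th highest of the whole list. Its peak was 707 bp wide and centred on exon 4 of 18, a coding exon of 144 bp, so that 20.4% of the peak was exon. The hexamer lay 91.5 bp from the peak centre. No other peak was centred in the gene, and the nearest TSS was 4910 bp away.

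For the 9 members below, chosen in the same way, 30 bases around the nearest hexamer are shown with the hexamer in capitals. The first 8 peaks were centred on untranslated exons, and the hexamer lay in an exon. The peak of H2-Aa was centred on a coding exon, and its nearest hexamer lay outside annotated exons.
Rgs2 (chr1:145846590-145846619, plus strand): cattgataggtgTGTGGTgagcaagagcta
Cd3d (chr9:44794766-44794795, plus strand): cccaaagcaggcTGTGGTgtttagaagctg
Heg1 (chr16:33770131-33770160, plus strand): ctattagactatTGTGGTctaaaagaggaa
Stk38l (chr6:146725303-146725332, plus strand): ttagctcatcacTGTGGTtaaagcccatta
Tnfrsf12a (chr17:23812849-23812878, plus strand): gccccaccccctTGTGGTtgaaagagtctg
Cd44 (chr2:102653163-102653192, minus strand): ttcacaaaacatTGTGGTggggacttgtgg
Ccr6 (chr17:8448643-8448672, plus strand): cactagtgagagTGTGGTtgaactgcccac
Runx2 (chr17:44744443-44744472, minus strand): tacagagtcagaTGTGGTgcactcagaaag
H2-Aa (chr17:34420051-34420080, plus strand): tatgtccccctgTGTGGTagctttggtgcc

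The centre of the peak set its place in the gene. Coding sequence held 134 members, 3' UTR 119, 5' UTR 8 and exons of noncoding transcripts 70, or 40.5%, 36.0%, 2.42% and 21.1%. At 45 centres more than 1 of these parts was annotated in different transcripts, and at 7 centres exons of 2 genes overlapped. Coding sequence then took precedence, and untranslated over noncoding sequence.

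Most members lay in the last exon of their transcript. The last exon held 201 members, internal exons 105, single-exon transcripts 16 and first exons 9. These counts were not adjusted for exon length, and the 1 kb rule leaves out sequence near the start of transcripts. By length of sequence, 3' UTR held 4.87 peaks per Mb and coding sequence 5.11. Within 3' UTR, 112 of 119 members were in the last exon, whereas 85 of 134 coding members were in an internal exon. The end of the gene lay within 1 kb of the centre for 107 members. The 3' UTR exons were long. The median exon length was 2154 bp for 3' UTR and 237.5 bp for coding sequence.

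The annotation of an exon often depended on the transcript. The centre of 231 members was exonic in the host gene's transcript with the longest coding sequence, 43 were in an intron of that transcript, and 57 were outside it or had no such transcript. Among the 70 noncoding members, 20 lay in retained introns, 19 in processed transcripts, 14 in lincRNA, 8 in transcripts subject to nonsense-mediated decay, 6 in antisense transcripts and 3 in other noncoding transcripts. Protein-coding genes hosted 40 of these 70.

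Peaks were wider than many exons. The peak lay wholly within exons for 178 members and ran past them for 153, and 75 peaks covered a whole exon. A median of 63.1% of the peak was exon for coding members, against 100% for 3' UTR members. Peak width had a median of 390 bp, against 406 bp over all peaks.

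The density of peak centres in exons was close to that in introns. Exons away from TSSs made up 61.9 Mb, or 2.42% of the genome, and held 5.35 peaks per Mb, with a Poisson 95% interval of 4.79 to 5.95. Introns held 5.07 per Mb (4.92 to 5.22), intergenic sequence 2.99 (2.91 to 3.08) and sequence within 1 kb of a TSS 54.1. Coding sequence held 5.11 per Mb (4.28 to 6.05), 3' UTR 4.87 (4.04 to 5.83) and noncoding exons 6.54 (5.10 to 8.26). The 5' UTR value of 14.3 per Mb rested on 8 peaks and had an interval of 6.19 to 28.2. These intervals cover counting error only, and no test between the densities was run. Lengths count every sequenced base and were not corrected for repeats, where uniquely aligned reads cannot be placed.

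**Figure D1:**
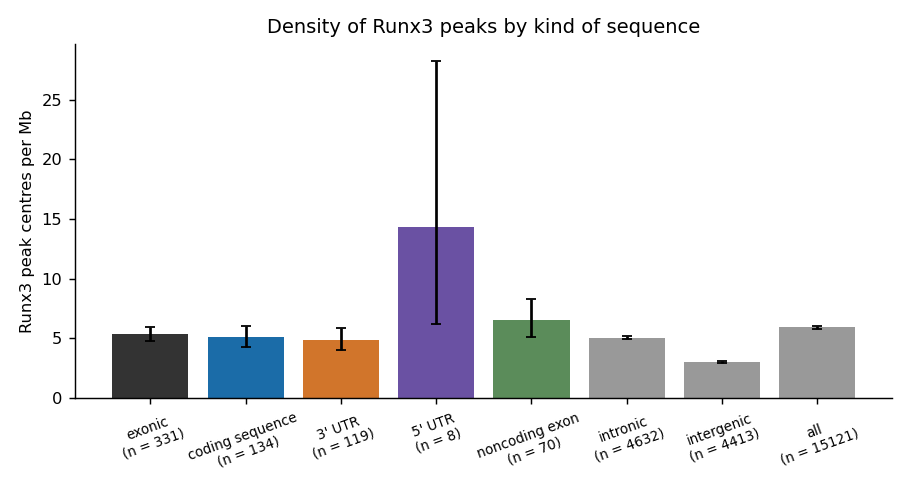
Runx3 peak centres per Mb of sequence more than 1 kb from any TSS, for all exons, 4 parts of exons, introns and intergenic sequence, and for the whole genome under "all"; error bars are exact Poisson 95% intervals of the counts. Exons (5.35 per Mb) and introns (5.07 per Mb) lie close together and intergenic sequence (2.99 per Mb) below both.

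The scores of exonic peaks had a median close to that of the list. It was 11.33 with an order-statistic 95% interval of 9.84 to 13.43, against 11.96 for intronic, 12.38 for intergenic and 12.43 for TSS peaks. At or above 23.19, the upper quartile of the list, were 79 members, or 23.9% with a Wilson 95% interval of 19.6 to 28.7%, where 25.4% of all peaks were. Within exons the medians were 13.04 for coding sequence (9.84 to 16.28), 11.96 for 3' UTR (9.62 to 14.4), 9.99 for noncoding exons (7.20 to 13.43) and 8.84 for 5' UTR, and these intervals overlapped.

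**Figure D2:**
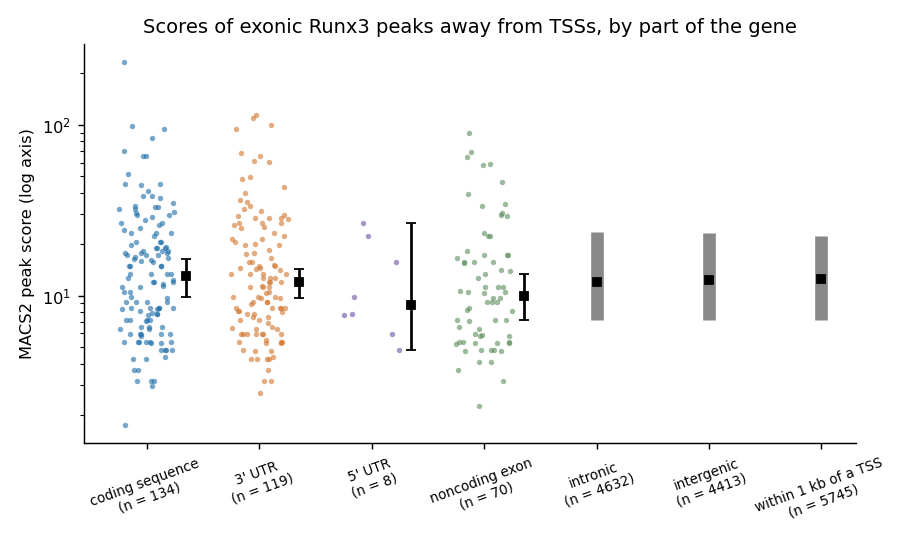
MACS2 scores of the 331 exonic peaks on a log axis, by part of the gene; each point is a peak, and squares with bars are medians with order-statistic 95% intervals. For intronic, intergenic and TSS peaks the grey bar spans the quartiles and the square is the median, and all medians lie between 8.84 and 13.04.

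Peaks that ran past their exon scored higher than peaks that stayed inside. The median was 15.73 (11.24 to 18.13) for the 153 that ran past and 10.1 (9.16 to 11.73) for the 178 within exons. The 75 that covered a whole exon had a median of 17.3 (13.39 to 20.62). These medians were not adjusted for peak width.

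Distance from the TSS ranged from 1003 to 145375 bp, with a median of 5175 bp. The 73 members at 1 to 2 kb had a median score of 10.5, the 90 at 2 to 5 kb 11.2, the 65 at 5 to 10 kb 9.86, the 91 at 10 to 50 kb 15.0 and the 12 beyond 50 kb 19.9. The share with TGTGGT was 49.3%, 57.8%, 60%, 62.6% and 83.3% in the same order. The Wilson 95% intervals of these shares overlapped, with 38.2 to 60.5% at 1 to 2 kb and 55.2 to 95.3% beyond 50 kb. The median score beyond 50 kb had an interval of 8.28 to 83.23, and no trend with distance was tested. The members just inside the limit were in Hes7 (1003 bp from a TSS of 9130213A22Rik, score 4.79), C630004H02Rik (1016 bp, 15.73) and Junb (1024 bp, 14.96). Just outside it were exonic peaks 988 bp from a TSS of Sit1 (4.79), 959 bp from one of BC042782 (18.13) and 959 bp from one of A830007P12Rik (5.79).

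The nearest TSS belonged to the host gene for 227 members and to another gene for 104. GENCODE M1 is an old annotation, so starts in a table of RefSeq promoters were matched to mm9 by sequence. Such a start lay within 1 kb of 13 members. The closest were those of Ethe1, 50 bp from the peak centre in its annotated 5' UTR, and Psmc2, 90 bp from the centre in an annotated coding exon. Both peaks were rich in GC, at 67.7% and 66.7%, and scored 4.79 and 7.84.

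Among coding exons, the 5 highest scores were in Ncam2, Ppargc1a, St3gal5, Papss1 and Hbegf. Ppargc1a, a coactivator of mitochondrial genes, had a peak of 98.08 on exon 5 of 13, 59230 bp from a TSS. St3gal5, the synthase of the ganglioside GM3, had one of 94.35 on its last coding exon, and the highest other peak of the gene was intronic with 76.25. Papss1, which makes the sulphate donor PAPS, had one of 83.23 on exon 12 of 12. Hbegf, a ligand of the EGF receptor, had the widest peak of all members, 1077 bp with a score of 70.43, and no TGTGGT. The peaks of Atg9a, an autophagy membrane protein, and Anxa6, an annexin, followed at 65.85.

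Peaks in 3' UTR reached 114.6 in Athl1, 109.45 in Rgs2, 99.56 in Cd3d, 94.35 in Heg1 and 68.13 in Flt3. Rgs2 is a regulator of G protein signalling, and its 3' UTR peak scored above the 38.11 of the peak at its TSS. A second exonic peak in Rgs2, on coding exon 2 of 5, scored 5.79. Cd3d encodes a subunit of the T cell receptor complex, and its peak was the only one within 2 kb of the gene. The exons of Heg1 and Flt3 belonged to other transcripts than the one with the longest coding sequence. In Flt3, the receptor for a growth factor of DC, the peak lay in an intron of that transcript, as part of a gene with 6 other peaks, the highest of them a TSS peak of 46.24.

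The 5' UTR members were few. Ccr6, a chemokine receptor, had the highest score, 26.73, on exon 5 of 6 and 10674 bp from a TSS, with 2 TGTGGT. Srgap2 had 22.33, Nup160 15.73, Kbtbd11 9.84 and Ccr2 7.84. The remaining 3, in Cybasc3, A930004D18Rik and Ethe1, scored 7.68, 5.96 and 4.79. Of the 8, 4 held TGTGGT, where 58.6% of all members did.

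Noncoding members were led by Rad52 and Cdc26. Rad52, a recombination protein, had a peak of 89 in the last exon of a processed transcript, in an intron of its longest coding transcript. Cdc26, a subunit of the anaphase-promoting complex, had one of 69.6 with 3 TGTGGT in a transcript subject to nonsense-mediated decay. C87436 (64.72), Gm17414 (59.12) and 6720416L17Rik (58.02) came next. The nuclear RNA Neat1, the scaffold of paraspeckles, held 2 members in its single exon of 20771 bp, with scores of 10.53 and 9.16 and 1 TGTGGT each.

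At the other end of the list, the lowest scores were 1.74 in Cep350, 2.26 in Zfr2, 2.67 in Gm10643, 2.96 in Klhdc9 and 3.17 shared by several members, among them Ccl17, a chemokine gene that is known to be expressed by DC. Of the 4 lowest, Klhdc9 alone held TGTGGT. The widest members after Hbegf were those of Crlf2 (962 bp), Cmya5 (936 bp), Fgfr1op (913 bp) and Pde6h (907 bp), with scores from 11.24 to 32.82.

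No gene held more than 2 members, and 10 held 2. Their scores were far apart in Rgs2, Slc43a2 (49.38 and 3.69), Tgm3 (34.72 and 4.23), Cmya5 (32.82 and 4.79), Cd44 (28.23 and 7.20) and Baz2a (23.19 and 6.34). They were closer in Clec1b (17.32 and 11.24), Neat1, Prdm2 (7.20 and 4.23) and A930004D18Rik (5.96 and 4.73).

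Other Runx3 peaks were centred in the host gene of 147 members, near a TSS for 60 and intronic for 98, and 184 members were the only peak between the ends of their gene. Peaks centred upstream of the gene were left out of these counts and of the comparison that follows. H2-Aa thus counted as the only peak of its gene, although a peak of 3.39 lay at its TSS. The member outscored every other peak centred between the ends of its gene in 58 of the 147, or 39.5%. The median number of other peaks was 1. How often peaks of other classes are the highest of their gene was not counted, so 39.5% cannot be called high or low. Itgax, which encodes CD11c, was one of the 58. Its peak on coding exon 8 of 30 scored 33.14, its intronic peak 5.30, and the 2 peaks near the TSS 7.89 and 10.29. Cd44, the hyaluronan receptor, had 28.23 in the 3' UTR, 7.20 in a noncoding exon and 6.57 in an intron. Runx2, a paralogue of Runx3, went the other way, with 9.16 in a 3' UTR and 16.53 in an intron. That 3' UTR belonged to another transcript than the one with the longest coding sequence, 111468 bp before the end of the gene. The nearest other peak of the list was a median of 12405 bp from a member, and within 5 kb for 93.

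**Figure D3:**
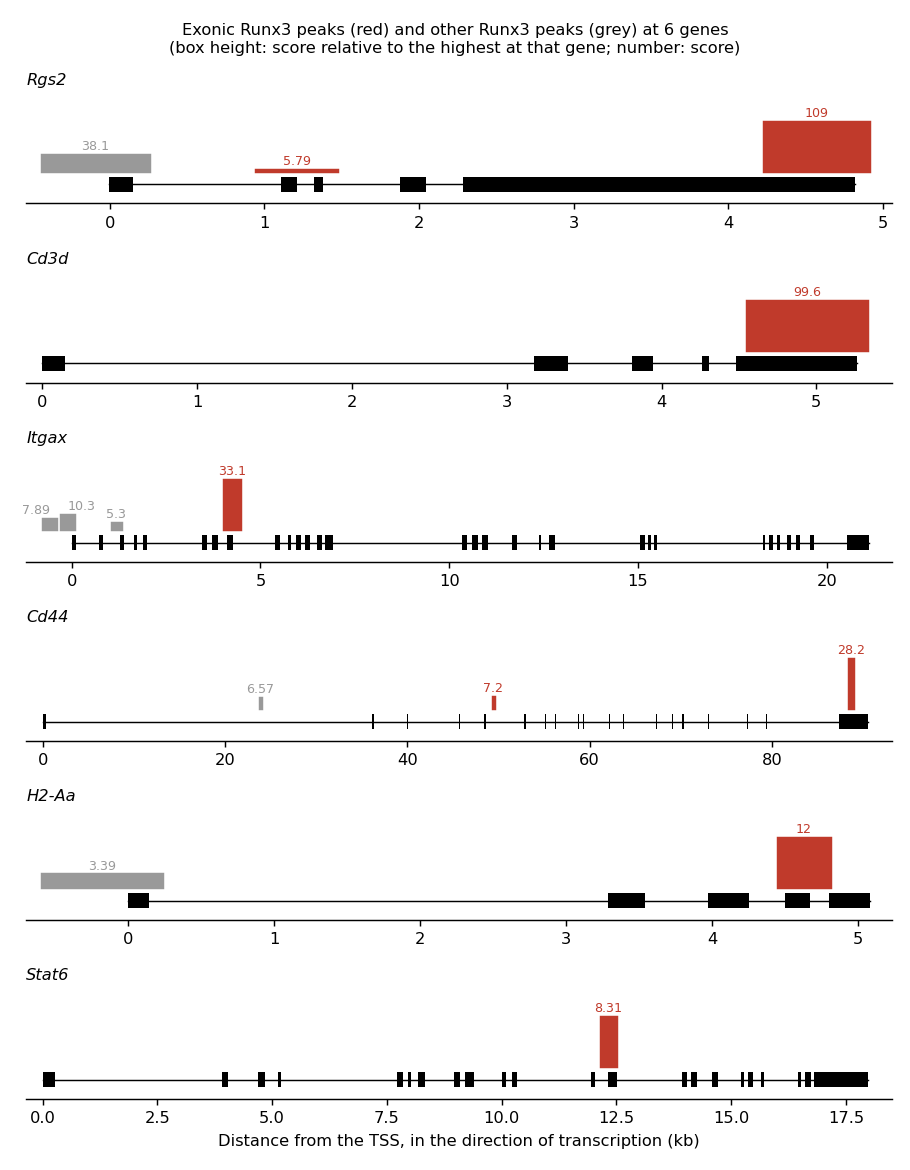
Exonic Runx3 peaks (red) and other peaks (grey) at Rgs2, Cd3d, Itgax, Cd44, H2-Aa and Stat6, along the distance in kb from the TSS of the transcript with the longest coding sequence, whose exons are black boxes; box height is the score relative to the highest at that gene. In Rgs2, Itgax and H2-Aa the exonic peak (109.45, 33.14 and 11.96) is higher than the peaks at the TSS (38.11, at most 10.29, and 3.39).

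The RUNX hexamer was present in most exonic peaks, though less often than in intronic ones. TGTGGT was searched over the full width of each peak, in either orientation, and found in 194 of 331 members, or 58.6% (53.2 to 63.8%), where 54.0% of all peaks held it. The share was 68.4% in intronic, 64.2% in intergenic and 34.4% in TSS peaks. Windows of equal width 10 kb towards higher coordinates held the hexamer in 25.5% of 322 pairs, against 58.4% of the members paired with them. In 137 pairs the hexamer was in the peak only and in 31 in the window only. The difference of 32.9 percentage points (25.7 to 39.6) passed an exact McNemar test, adjusted p = 2.53e-16 over 6 hexamer tests. Of the 322 windows, 45 were themselves centred in an exon, and windows were not matched to peaks for base composition. The study had found this hexamer by de novo search in the same Runx3-bound regions, so its excess over windows is not an independent result. It reports the motif in a larger share of its bound regions than the 54.0% found here. How the study counted matches is not stated in the sources used here, so the shares may not be like measures.

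Against intronic peaks the difference was -9.74 points (-15.3 to -4.39), with an adjusted p of 0.000944 by Fisher's exact test. Against intergenic peaks it was -5.63 points (-11.2 to -0.261), which did not pass, with an adjusted p of 0.0655. The intronic call was lost in 4 of 9 alternatives. At or above the list median score the adjusted p was 0.182, at or above the upper quartile 0.201 and in the central 200 bp 0.127. When C or T was allowed at base 1 and at base 3, 76.1% of exonic and 77.9% of intronic peaks matched, a difference of -1.78 points (-6.80 to 2.66) with an adjusted p of 0.542. Counted apart, which was chosen after seeing the data, TGCGGT was in 19.6% of exonic peaks (15.7 to 24.3%) and 13.0% of intronic ones. CGTGGT was in 14.5% and 10.6%, and CGCGGT in 4.83% and 2.18%. Over all peaks the shares were 20.1%, 14.6% and 12.4% in the same order, so no variant was more frequent in exonic peaks than in the whole list. Exonic peaks had a median GC content of 50.7%, against 47.4% in intronic ones, and a median ratio of observed to expected CpG of 0.303 against 0.217. The part of base composition in the difference was not tested.

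**Figure D4:**
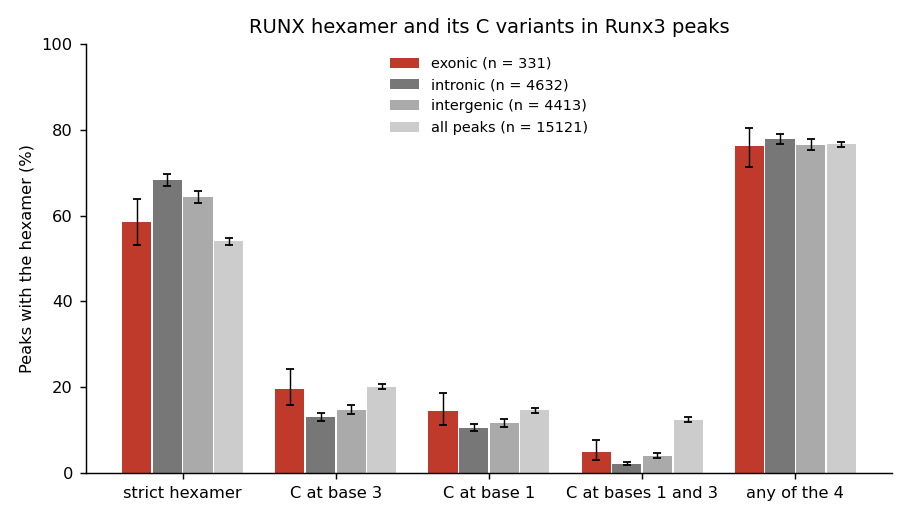
Percentage of exonic, intronic, intergenic and all Runx3 peaks that hold the strict RUNX hexamer, its variants with C at base 1 or 3, or any of the 4; error bars are Wilson 95% intervals. Exonic peaks are below intronic ones for the strict hexamer (58.6% and 68.4%), above them for each variant, and closest for any of the 4 (76.1% and 77.9%). No variant is more frequent in exonic peaks than in all peaks.

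Among the parts of exons, the hexamer was in 51.5% of coding members (43.1 to 59.8%), 63.0% of 3' UTR members (54.1 to 71.2%) and 65.7% of noncoding members (54.0 to 75.8%). Most members with it held a single copy, 120 of 194, while 58 held 2, 12 held 3 and 4 members held more. The hexamer nearest the centre lay in an exon in 173 of the 194. Since the rule places every peak centre in an exon, and hexamers lie near centres, this count is a description that follows in part from the rule.

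The hexamers gathered at peak centres. Within 100 bp of the centre there were 2.92 per kb (2.52 to 3.36), and farther out within the peak 1.28 (1.04 to 1.57). The nearest hexamer was a median of 41 bp from the centre. In Stat6, the factor of interleukin-4 signalling, it lay 4.5 bp from the centre of a peak of 8.31 on coding exon 13 of 22, and in Stk38l, a kinase, 6.5 bp from the centre of a 3' UTR peak of 61.34. The density was uneven on the 2 sides. The 50 bp above the centre in coordinates had 4.29 per kb (71 hexamers) and the 50 bp below it 3.26 (54 hexamers), and the next bins out had 46 and 23. Intronic peaks showed the same side higher, with 5.87 and 3.70 per kb in the inner bins.

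**Figure D5:**
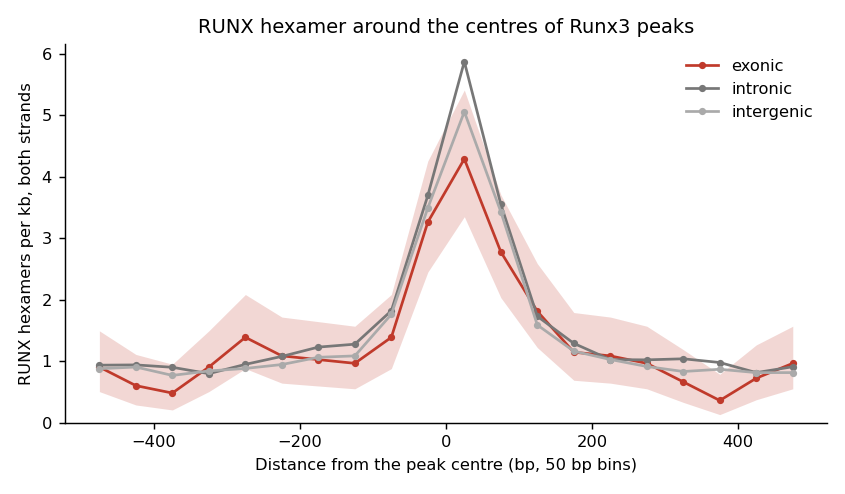
Density of the RUNX hexamer on both strands, per kb, against distance from the peak centre in 50 bp bins, with positive distances towards higher coordinates; the band is the Poisson 95% interval for exonic peaks. All 3 lines peak in the bin from 0 to 50 bp, at 4.29 per kb for exonic and 5.87 per kb for intronic peaks.

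The member with the most hexamers was Tnfrsf23, a decoy receptor of the TNF receptor family, with 5 copies under a low score of 5.36. The peak lay on the last exon of a noncoding transcript. The hexamers started 156, 52, 52 and 52 bp after each other, and the 30 bases around each copy, with the hexamer in capitals, show copies of similar sequence.
Tnfrsf23 copy 1 (chr7:150852810-150852839, minus strand): cttgcctaggggTGTGGTcagtgccttttt
Tnfrsf23 copy 2 (chr7:150852966-150852995, minus strand): cttgcctaggggTGTGGTcagtgccttttt
Tnfrsf23 copy 3 (chr7:150853018-150853047, minus strand): cttggctaggggTGTGGTcagtgccttgct
Tnfrsf23 copy 4 (chr7:150853070-150853099, minus strand): cttggctaggggTGTGGTcagtgccttttt
Tnfrsf23 copy 5 (chr7:150853122-150853151, minus strand): cttgcctaggggTGTGGTcagtgccttgtt

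Next in number of hexamers came Bhmt2 (score 18.13), Fxyd5 (11.96) and Pde6h (11.24) with 4 copies each. H2-Aa, the alpha chain of an MHC class II molecule, held 3 copies in a peak of 11.96 on exon 4 of 5, with a TSS peak of 3.39.

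TGACGT is the hexamer that the study gives for zDC, another factor of DC. The study found it too by de novo search in these Runx3-bound regions, so an excess over windows is not independent support. TGACGT was found in 33 members, or 9.97% (7.19 to 13.7%), where 11.0% of all peaks held it. It was in 9.94% of members with a window and 3.11% of their windows, a difference of 6.83 points (3.18 to 10.8). The peak only held it in 30 pairs and the window only in 8, with an adjusted p of 0.000944 by the exact McNemar test. This call was lost against windows on the other side of the peak, with a difference of 4.94 points and an adjusted p of 0.0518. The share was 7.17% in intronic and 7.27% in intergenic peaks. Neither difference passed, at 2.80 points (-0.0871 to 6.57) with an adjusted p of 0.0765 and at 2.70 points (-0.200 to 6.47) with an adjusted p of 0.0818 by Fisher's exact test.

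TGACGT did not show the gathering at centres seen for TGTGGT, though on few hexamers. There were 0.271 per kb (0.160 to 0.428, 18 hexamers) within 100 bp and 0.378 (0.251 to 0.547, 28 hexamers) farther out. These intervals overlapped. The highest member with it, Athl1, and the GC-rich member of C87436 both lacked TGTGGT and held the palindrome TGACGTCA, which counts on both strands. It is shown in capitals below within 30 bases each.
C87436 (chr6:86422228-86422257, plus strand): ggccccgcgaggTGACGTCAccacgctgcc
Athl1 (chr7:148133231-148133260, plus strand): ttgattcctttcTGACGTCAgatggtatct

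Motifs of other factors were counted in the same way. TGANTCA, the AP-1 element, was in 42 members, or 12.7% (9.53 to 16.7%), where 13.2% of all peaks and 16.7% of intronic peaks held it. GAGGAAGT, an element of the ETS factor PU.1, was in 57, or 17.2% (13.5 to 21.7%), where 14.6% of all peaks and 18.7% of intronic peaks held it. CACGTG was in 13.0% of members (9.79 to 17.0%), 10.9% of all peaks, 8.14% of intronic peaks and 8.91% of intergenic peaks. These shares were not tested. A match says only that the letters are present.

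The 331 members lay in 321 different genes, of which 291 were protein-coding, so that 1.30% of the 22367 protein-coding genes hosted an exonic peak. The gene groups that follow were built from symbols, and their shares were not adjusted for the length of their exons. They were not tested. Beside their scores and hexamer counts, all 331 members had a median score of 11.33 and 58.6% held TGTGGT. Over all peaks these values were 12.14 and 54.0%.

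Leukocyte surface receptors were hosts in 15 of 285 genes, or 5.26%, with 17 members, scores from 3.17 to 99.56 and a median of 9.16. Cd3d, Tnfrsf12a (the TWEAK receptor, 48.33), Itgax, Cd44 and Ccr6 had the highest scores among the receptors of this list. Clec1b, Ccr10, Slamf9, Ccr2, Il1r1, Tnfrsf23, Il28ra, Il18rap and Il3ra had scores from 3.17 to 17.32. Cd3eap (26.73) was counted by its symbol but encodes a subunit of RNA polymerase I. TGTGGT was in 9 of the 17 members, and the 3' UTR peak of Tnfrsf12a had 2 copies.

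Antigen presentation genes were hosts in 2 of 52, or 3.85%. Tap1, a subunit of the peptide transporter of MHC class I, had a peak of 18.13 on exon 11 of 11 with 2 TGTGGT, the nearer of them 19.5 bp from the centre. The nearest TSS to this peak was one of Psmb8, 1043 bp away, and the nearest of Tap1 was 3624 bp away. H2-Aa was the other host. Both are shown above by their hexamers.

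The list of zinc finger and lineage transcription factors, which leaves out other factor families, had hosts in 10 of 482 genes, or 2.07%, with scores from 5.36 to 23.4. Nfkb2, the gene of the NF-κB subunit p52, had the highest of the list, on coding exon 13 of 22. Klf1, an erythroid factor, followed with 20.62 and then Zfp652 with 17.32, both without TGTGGT. Zfp784 had 10.53, Runx2 9.16, Stat6 8.31 and Zfp574 7.20. Zfp385c, Zfp219 and Zfp36l1, the last an RNA-binding protein counted by its symbol, each had 5.36. TGTGGT was in 5 of the 10.

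Chromatin regulators hosted members in 2 of 94 genes, or 2.13%, in Chd9 (9.20) and Setd1b (4.79), and GTPase regulators in 1 of 207, or 0.483%, Rgs2. Solute carriers, taken for comparison, were hosts in 3 of 355, or 0.845%. Their 4 members were in Slc43a2, Slc11a2 (an iron transporter, 26.73) and Slc47a1 (19.78), and all 4 held TGTGGT. None of 1113 olfactory receptor genes was a host.

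Of the genes that the study lists as changed in Runx3-deficient CD4+ DC, those whose symbol matched a protein-coding gene of the annotation were used. Of 403 such genes 11 were hosts, or 2.73%, where 1.30% of all protein-coding genes were. That base takes in genes whatever their expression in DC, and no test was run. The study reports most of its responsive genes as bound by Runx3, at sites of any kind. Shares for other classes of peak were not counted, so the value cannot be called particular to exonic peaks. Of the 264 listed as higher without Runx3, 8 were hosts (3.03%), and of the 139 listed as lower, 3 (2.16%). The hosts listed as higher were Heg1, Hbegf, P2ry14, Pilra, Il4i1, Spib, Runx2 and Ccr2, and those listed as lower were St3gal5, Gm9705 and Gpr4. The 11 scores ranged from 7.84 to 94.35 with a median of 29.03, and 8 of the peaks held TGTGGT. Over all 331 members the median score was 11.33 and 58.6% held TGTGGT. Neither difference was tested on these 11 peaks. The list came from expression arrays of the study that were not analysed here, and symbols and directions alone were used. Flt3 and Itgax, which the study names among its responsive genes bound by Runx3, were not matched by symbol in this list or in the one for Esamhi DC.

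The receptor of UDP-glucose P2ry14 had a 3' UTR peak of 43.14, the proton-sensing receptor Gpr4 a coding peak of 29.03, and the paired inhibitory receptor Pilra one of 27.64. Gm9705 had 30.97 and Il4i1, a secreted L-amino acid oxidase, 17.66. Spib, an ETS factor, had 11.96 in its 3' UTR without TGTGGT. Ccr2, a chemokine receptor, was the lowest at 7.84.

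Of 193 genes matched in the same way from the list for Runx3-deficient Esamhi DC, 5 were hosts, or 2.59%. Over all protein-coding genes the share was 1.30%, with the limits given for the first list. All 5 hosts were among the 143 listed as higher (3.50%), and none of the 50 listed as lower was a host. P2ry14 and Ccr2 were in both lists. AW549877 had a 3' UTR peak of 40.1, Fndc7 one of 20.62 and Xcr1, the receptor of the chemokine XCL1, one of 5.96. Of these 3, Fndc7 alone held TGTGGT.

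A small set of members had the base composition of CpG islands. Of the 331, 33 had a GC content over 50% and an observed to expected CpG ratio over 0.6. The share of all peaks that met these limits was not counted, so 33 cannot be called many or few. Median GC and CpG ratio were 50.7% and 0.303 in members, 50.7% and 0.316 in all peaks, and 59.7% and 0.754 in TSS peaks. The scores of the 33 ranged from 3.69 to 64.72, the highest in C87436. Jag1, Junb, Wnt10a, Wnt10b, Klf1, Nfkb2 and Crlf2 were among them. Of the 33, those in 1810019N24Rik, Jag1, Psmc2, Ethe1 and A930004D18Rik also lay within 1 kb of a RefSeq start. Coding exons held 19 of the 33. TGTGGT was in 9 of the 33, where 58.6% of all members and 34.4% of TSS peaks held it. Nup160 reached the highest ratio, 1.10, in its 5' UTR.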

How the data were processed

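Runx3 ChIP-seq libraries of splenic CD4+ DC (2 immunoprecipitates and 2 inputs) were processed by the authors with CASAVA 1.8, Bowtie and MACS2 on mm9, as the submitters' processing notes name them. The deposited list came from 1 peak call on the pooled samples and gave the ends of each peak and its score. The unit of the deposited score, the threshold, and the handling of duplicate reads are not given in the sources used here, and read depth per sample was not analysed here and limits how weak a region could still be called. A score can depend on read depth, on the input and on the width of a peak.

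Peaks were placed by their centre on GENCODE M1 (37273 genes, 95458 transcripts) and NCBIM37 sequence. Positions count from 1. Motifs were searched on both strands. Shares carry Wilson intervals, medians order-statistic intervals, densities exact Poisson intervals and differences Newcombe intervals, all at 95% and for counting error only. Peaks were the units of all tests, which were two-sided, and 6 hexamer tests were adjusted together by Benjamini-Hochberg, with a threshold of 0.05. Of the 331 members, those whose window met another peak, crossed a chromosome end or included unread bases were left out of the window pairs. The methods were tested on simulated data.

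Members and lists were chosen with earlier results of these data known. Genes were named for the 12 highest scores, the 5 widest peaks, the 5 lowest scores, the 5 with most TGTGGT, the 5 highest scores in each part of the gene, membership in the study's lists of changed genes or in symbol families. Genes with members on either side of a limit, with 2 members or near RefSeq starts, and those shown for base composition or hexamer position, were named after their values were seen. RefSeq starts came from a table of promoter sequences, matched by sequence on the same chromosome.

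Alternatives were higher score limits, protein-coding exons or TSSs only, a distance of 2 kb, placement by exonic share, joined peaks, degenerate hexamers, the central 200 bp and upstream windows. The tools were pysam 0.24.0, matplotlib 3.10.9, pandas 2.3.3, scipy 1.17.1 and numpy 2.4.6 in Python 3.11.15.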

Additional observations from a re-analysis of the deposited data

How the results depend on the processing

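With peaks at or above the list median score, 157 exonic peaks with a median score of 23.19 were left, and at or above the upper quartile 79 with a median of 33.24, as fewer peaks entered. The other 5 alternatives kept the count within 1.5 times and the median within its interval. The excess of TGTGGT over downstream windows passed under all 10 alternatives. The lower share of TGTGGT than in intronic peaks no longer passed at or above the list median (-6.21 points), at or above the upper quartile (-6.97), in the central 200 bp (-5.76) or with degenerate hexamers (-1.78), and passed in the other 5. The difference from intergenic peaks passed with exons of protein-coding transcripts only (-7.54) and with TSSs of protein-coding genes only (-7.47). The excess of TGACGT over windows no longer passed at or above the upper quartile (9.09 points), in the central 200 bp (2.78) or against upstream windows (4.94). The TGACGT differences from intronic and intergenic peaks passed beyond 2 kb (3.85 and 3.73) and with TSSs of protein-coding genes only (3.87 and 3.60). No difference changed sign, and the causes were not tested. No paired analysis was possible because the list is 1 call on pooled samples with no value per replicate, and for the same reason no replicate could be left out.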
